A study of Mus musculus with 8 samples.

Results

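Peroxisomal beta-oxidation shortens fatty acids that mitochondria handle poorly, such as very long, branched and dicarboxylic chains. The 9 genes described here encode its transporters, the enzymes of its cycle and the enzymes around it. They are *Ehhadh*, *Hsd17b4*, *Acaa1a*, *Acaa1b*, *Scp2*, *Abcd2*, *Abcd3*, *Crot* and *Decr2*. They were taken by symbol, as genes of the pathway, from a table of 16540 genes, with earlier results of these data known. All 9 passed the filter on low counts, which left 12307 genes for testing.

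The counts came from RNA sequencing of whole liver in male *Apoe*-/- mice, 4 given vehicle and 4 given isoginkgetin (ISOGK), with 1 library per mouse. ISOGK is a plant biflavonoid that the study describes as an inhibitor of ATP-citrate lyase. Mice of both groups lacked apolipoprotein E and ate a Western diet, and ISOGK was injected intraperitoneally at 20 mg/kg/day for 8 weeks, with the solvent DMSO as vehicle. The paper describes the same diet as high in cholesterol, started before the injections, and the age of the mice is not given in the sources used here. *Apoe* itself had 3252 to 6489 counts per library. Without a wild-type library, counts per gene cannot show the knockout or its absence, so it rests on the labels.

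Acyl-CoA enters the peroxisome through ATP-binding cassette half-transporters of the ABCD family. An acyl-CoA oxidase makes the first double bond and releases hydrogen peroxide, a multifunctional enzyme adds water and oxidizes the product, and a thiolase splits off acetyl-CoA. In rodent liver many of these genes are textbook targets of PPAR alpha, a nuclear receptor that is activated by fatty acids and fibrate drugs. Most of the matrix enzymes carry a short signal at their carboxyl end, the type 1 peroxisomal targeting signal, whereas the thiolases of the *Acaa1* genes carry another signal near their amino end.

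The ends of the coding sequences are given for 5 members to show the first kind of signal and, for *Acaa1a*, an end of another kind. That of *Hsd17b4* is not shown here. Each line gives the last 30 coding bases before the stop codon from GENCODE M21 (GRCm38), with the last 3 codons in capitals, where the signal is encoded if there is one.
*Ehhadh*: agcttggcaggaccccatagcAGCAAACTG
*Scp2*: cttcagcttcagccgggcaaaGCTAAGCTG
*Decr2*: ctagagtttgaatccttctctGCTAAGCTG
*Crot*: atgatacagctgatgaacaccGCTCATCTT
*Acaa1a*: gctgctgcggtctttgaatacCCTGGGAAC
*Ehhadh* ended in codons for serine, lysine and leucine, the canonical form of the signal. *Scp2* and *Decr2* shared their last 9 bases, which encode alanine, lysine and leucine, and *Crot* ended in codons for alanine, histidine and leucine. The ends of *Acaa1a* and *Acaa1b* were identical (0 of 30 bases differed) and encode proline, glycine and asparagine.

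With ISOGK, 7 of the 9 genes rose, 0 fell, and *Scp2* and *Abcd2* did not pass the test at an adjusted p under 0.05. Levels are given as CPM, that is, counts relative to library size. The rise was 5.95-fold for *Ehhadh* and between 1.38-fold and 1.71-fold for the other 6 genes, *Hsd17b4*, *Acaa1a*, *Acaa1b*, *Abcd3*, *Crot* and *Decr2*. Over all tested genes, 4.11% rose, 3.44% fell and 7.55% did either at the same threshold in edgeR's quasi-likelihood test with Benjamini-Hochberg adjustment. Without adjustment, 8 members had a p under 0.05 in the direction of a rise and 0 in that of a fall. Such p-values were common in either direction, since the gene *Cd36*, just above 0.05, ranked 2974 by p among the 12307 tested. DESeq2 and limma-voom each called 7 members higher and 0 lower. Among the 12307 genes, DESeq2 called 765 higher and 670 lower, and limma-voom called 461 higher and 411 lower. The log2 fold change was above 0 for 8 members, as for 50.2% of tested genes, and the median of the 9 was 0.61, beside 0.00 over all tested genes. In 7 of the 9 genes every ISOGK-treated mouse lay above every vehicle-treated mouse, a separation in this direction that 7.92% of tested genes showed, and 0 members were separated in the other direction, beside 7.36%. A single member, *Ehhadh*, passed both an adjusted p under 0.05 and a log2 fold change over 1, which 0.999% of tested genes did in the direction of a rise, and 0.626% passed both in that of a fall.

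**Figure D1:**
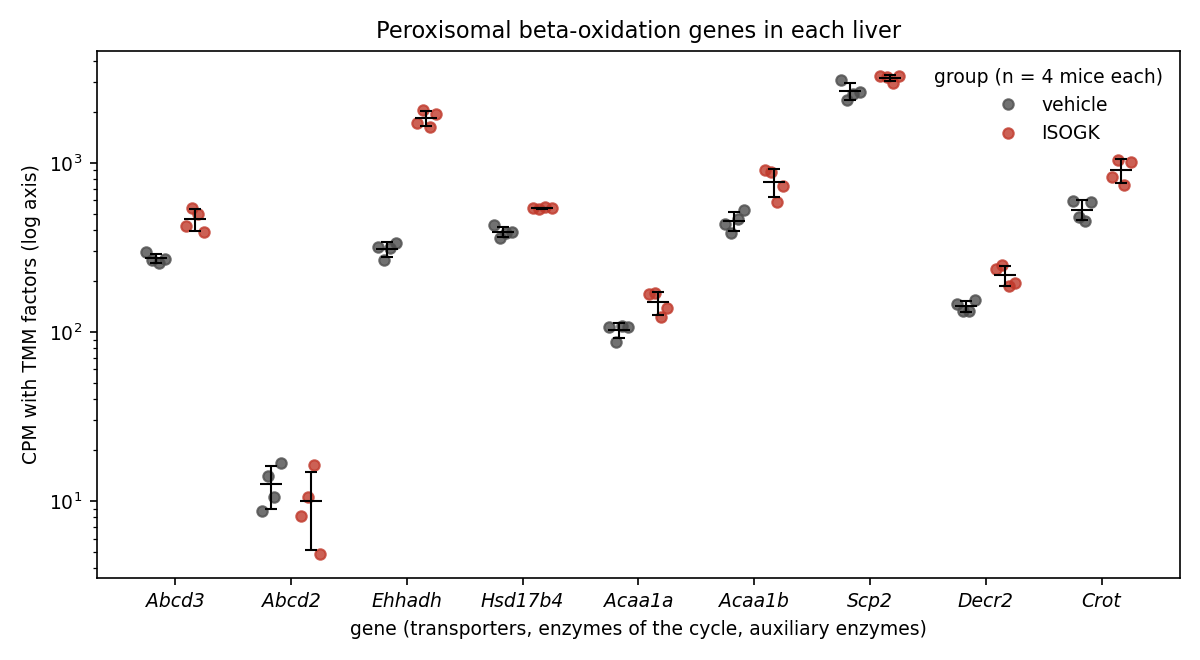
Level of each of the 9 genes in each mouse, in CPM with TMM factors on a log axis, with points for mice and the mean ± SD (n = 4 per group). All ISOGK-treated mice sit above all vehicle-treated mice for 7 genes, and the groups overlap for *Scp2* and *Abcd2*.

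Between 19605286 and 24461854 reads per vehicle-treated mouse and between 17457106 and 21626399 per ISOGK-treated mouse were counted on genes. Hepatocyte markers were plentiful in every library, at a summed level of 150700 to 161451 CPM with vehicle and 137969 to 173529 CPM with ISOGK, and 0 of 8 passed the test in edgeR (1 higher at an unadjusted p under 0.05, 1 higher in DESeq2, 0 in limma-voom). Of 7 Kupffer cell markers, 1 fell, *Cd68*, by 0.57 on the log2 scale (SE 0.11, edgeR adjusted p = 0.00900), and 2 were lower at an unadjusted p under 0.05 and 2 in DESeq2. The median log2 fold change of these 7 was -0.57, with 1 above 0, and they summed to 981 to 1240 CPM with vehicle and 765 to 998 CPM with ISOGK. Of 5 cholangiocyte markers, 1 rose, *Sox9*, by 0.51 (SE 0.14, edgeR adjusted p = 0.0494), and 4 were higher at an unadjusted p under 0.05 and 2 in DESeq2. All 5 had a log2 fold change above 0, with a median of 0.61, and they summed to 27.5 to 34.8 CPM with vehicle and 28.2 to 69.1 CPM with ISOGK. No stellate, endothelial or lymphocyte marker passed in edgeR (0 of 7, 0 of 6 and 0 of 3 tested), while 1 stellate and 1 endothelial marker were lower at an unadjusted p under 0.05 and 1 stellate marker was lower in DESeq2. Unadjusted p-values under 0.05 were common over all tested genes, as given above, and the marker counts were not tested against them. Adipocyte markers summed to at most 0.602 CPM in any library. The 10 skeletal muscle markers had 1588 counts together in vehicle-treated mouse 4 and 0 to 12 in the other libraries, and without this mouse 7 members again rose and 0 fell. The part of these cell types in the members' values was not tested, and in whole liver fewer cells of a type and less RNA per cell cannot be told apart.

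*Abcd3*, also known as PMP70, encodes a major protein of the peroxisomal membrane that imports branched-chain and dicarboxylic acyl-CoA and bile acid precursors (chromosome 3, 121758774 to 121815302 in GRCm38, minus strand). It had 295, 267, 254 and 271 CPM in vehicle-treated mice 1 to 4 and 425, 543, 499 and 391 CPM in ISOGK-treated mice 1 to 4. The lowest ISOGK-treated mouse, mouse 4, stood well above the highest vehicle-treated mouse. The means were 272 ± 17.2 and 465 ± 69.1 CPM (SD, n = 4 each), a log2 fold change of 0.77 (SE 0.12, 95% interval 0.52 to 1.02, edgeR adjusted p = 0.00269).

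*Abcd2* encodes a related transporter for very long and polyunsaturated acyl-CoA (chromosome 15, 91145871 to 91191799, minus strand). It had 8.78, 14.0, 10.6 and 16.8 CPM with vehicle and 8.19, 10.6, 16.4 and 4.87 CPM with ISOGK, which rest on 93 to 376 counts per library. The groups overlapped, with the highest ISOGK-treated mouse near the highest vehicle-treated mouse and the lowest below all others. The log2 fold change was -0.33 (SE 0.34, edgeR adjusted p = 0.613), and its 95% interval of -1.11 to 0.45 covers a fall by more than 1 on the log2 scale as well as a modest rise. Its biological coefficient of variation was 0.336, beside 0.123 to 0.167 for the other 8 members, so the same change would have been harder to detect for it.

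The ratio of *Abcd2* to *Abcd3* counts needs no scaling between libraries. It was 0.0297, 0.0524, 0.0416 and 0.0621 with vehicle and 0.0193, 0.0195, 0.0329 and 0.0125 with ISOGK. In 3 of 4 ISOGK-treated mice it lay below every vehicle-treated mouse, and in ISOGK-treated mouse 3 it fell inside the vehicle range. The mean log2 ratio differed by -1.17 (SE 0.37, two-sided exact permutation test, p = 0.0571, adjusted p = 0.0653 over the 8 ratios examined).

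*Ehhadh* encodes the multifunctional enzyme with hydratase and dehydrogenase activities of the classic, PPAR alpha-inducible cycle. It lies on chromosome 16 of GRCm38 from 21761287 to 21787807 on the minus strand (ENSMUSG00000022853.7), with 2981 bases of exons. Vehicle-treated mice 1 to 4 had 317, 267, 315 and 336 CPM and ISOGK-treated mice 1 to 4 had 1726, 2053, 1629 and 1942 CPM. The lowest ISOGK-treated mouse was several times the highest vehicle-treated mouse, and the spread relative to the mean was alike in both groups (coefficient of variation 9.58% and 10.6%). From 309 ± 29.6 to 1837 ± 194 CPM (SD, n = 4 each), the fold was 5.95 (95% interval 4.98 to 7.11), and the log2 fold change of 2.57 (SE 0.12, edgeR adjusted p = 4.65e-07) ranked 1 by p among the genes tested.

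*Hsd17b4* encodes the other multifunctional enzyme of the peroxisome, D-bifunctional protein, which handles the opposite stereoisomer and is needed for very long and branched chains and for bile acid precursors. It had 427, 361, 384 and 388 CPM with vehicle and 537, 536, 545 and 537 CPM with ISOGK. The groups did not overlap, and the ISOGK-treated mice were almost identical to each other, with a coefficient of variation of 0.828% beside 6.99% with vehicle. With 9645 to 10947 counts per ISOGK library, this spread is no larger than counting alone would give. The gene's fitted biological coefficient of variation was 0.123, and the closeness of these mice was not tested. The means were 389.9 ± 27.3 and 539 ± 4.46 CPM (SD, n = 4 each), a log2 fold change of 0.47 (SE 0.09, 95% interval 0.27 to 0.66, edgeR adjusted p = 0.00927).

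The balance between these enzymes was compared within each library. In vehicle-treated mice 1 to 4 there were 0.742, 0.739, 0.821 and 0.866 *Ehhadh* reads per *Hsd17b4* read, and in ISOGK-treated mice 1 to 4 there were 3.21, 3.83, 2.99 and 3.62. The groups did not overlap, and since the lengths of the genes cancel between mice, the values compare mice and not the levels of both genes. The ratio was 4.30-fold higher with ISOGK, a log2 difference of 2.10 (SE 0.10, exact permutation test of both directions, p = 0.0286, which 4 mice against 4 cannot go below, adjusted p = 0.0653).

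*Hadha*, the mitochondrial trifunctional protein subunit that carries out the same pair of reactions, gave a similar picture. *Ehhadh* reads per *Hadha* read were 0.935, 0.953, 0.968 and 1.02 with vehicle and 3.75, 4.28, 3.54 and 4.06 with ISOGK. Every ISOGK-treated mouse lay severalfold above every vehicle-treated mouse. The log2 ratio differed by 2.01 (SE 0.07, exact permutation test, p = 0.0286, adjusted p = 0.0653), although *Hadha* rose as well, from 318 ± 26.3 to 469 ± 10.9 CPM (SD, n = 4 each).

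**Figure D2:**
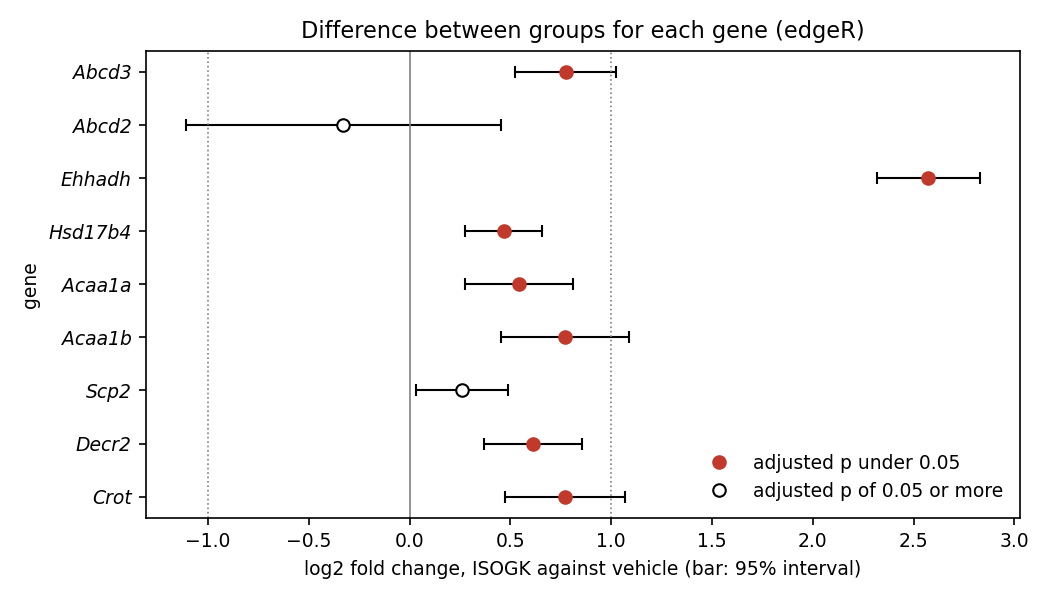
Log2 fold change of each of the 9 genes, ISOGK over vehicle, from edgeR (x axis), with its 95% interval as a bar, filled points for an adjusted p under 0.05 and dotted lines at -1 and 1. *Ehhadh* stands alone at 2.57, the 6 other filled points lie between 0.47 and 0.77, and the intervals of *Scp2* and *Abcd2* are those with open points.

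Mice have a pair of genes for the classic peroxisomal thiolase, *Acaa1a* and *Acaa1b*, which lie 182582 bases apart on chromosome 9 (*Acaa1a* from 119339676 to 119350299, plus strand, and *Acaa1b* from 119148023 to 119157093, minus strand). The first 90 coding bases of each, which encode the end of the protein that carries their targeting signal, are given because they show how alike the copies are, with the bases that differ in capitals.
*Acaa1a*: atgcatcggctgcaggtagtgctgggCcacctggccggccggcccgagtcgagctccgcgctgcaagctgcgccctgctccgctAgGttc
*Acaa1b*: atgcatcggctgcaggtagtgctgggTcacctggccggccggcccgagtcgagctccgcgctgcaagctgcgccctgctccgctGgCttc
Only 3 of these 90 bases differed, and 44 of all 1275 coding bases did, which leaves 96.5% identical. The longest identical run was 327 bases. Windows of 50 bases that occur in both transcripts made up 34.0% of those of *Acaa1a* and 35.5% of those of *Acaa1b*, and windows of 150 bases made up 12.7% and 13.3%. Read length is not given in the sources used here, so some reads could have been split between the copies and the values of each are uncertain to that extent.

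*Acaa1b* had 436, 385, 468 and 525 CPM with vehicle and 901, 877, 586 and 729.5 CPM with ISOGK. The groups did not overlap, but ISOGK-treated mouse 3 stood close to the highest vehicle-treated mouse. The rise from 453 ± 58.6 to 773 ± 146 CPM (SD, n = 4 each) was 0.77 on the log2 scale (SE 0.15, 95% interval 0.45 to 1.09, edgeR adjusted p = 0.00893). Its annotated exons share 11.4% of their bases with *Dlec1* on the opposite strand, which had 1 to 7 counts per library.

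*Acaa1a* had 107, 87.1, 108 and 107.5 CPM in vehicle-treated and 168, 169, 122 and 138 CPM in ISOGK-treated mice. Again the groups did not overlap and ISOGK-treated mouse 3 was the lowest of its group. The log2 fold change was 0.54 (SE 0.12, 95% interval 0.27 to 0.81, edgeR adjusted p = 0.0229), and this call was the least stable of the 7. It was lost with scaling by library size alone (log2 fold change 0.41, edgeR adjusted p = 0.0708) and without vehicle-treated mouse 1 (0.56, 0.0510), vehicle-treated mouse 2 (0.47, 0.0842) or ISOGK-treated mouse 2 (0.48, 0.0665). In the annotation 6.57% of the exons of *Acaa1a* overlap *Myd88* on the opposite strand, which had 20.8 ± 1.25 and 21.5 ± 2.65 CPM (log2 fold change 0.05, edgeR adjusted p = 0.831). Whether the counting used strand is not stated.

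*Acaa1b* reads per *Acaa1a* read were 4.06, 4.42, 4.32 and 4.88 with vehicle and 5.36, 5.18, 4.80 and 5.29 with ISOGK. The ratio was higher in 3 of 4 ISOGK-treated mice than in any vehicle-treated mouse, with mouse 3 just inside the vehicle range. The difference of 0.23 on the log2 scale (SE 0.07, exact permutation test, p = 0.0571, adjusted p = 0.0653) did not pass the test.

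*Acaa2* encodes a mitochondrial thiolase. Another is encoded by *Hadhb*, named after its value was seen, which rose by 0.61 (SE 0.09, edgeR adjusted p = 0.00227). No ratio to *Hadhb* was examined. The ratio of *Acaa1a* to *Acaa2* was 0.192, 0.162, 0.180 and 0.174 with vehicle and 0.263, 0.249, 0.243 and 0.195 with ISOGK, so that ISOGK-treated mouse 4 barely exceeded the highest vehicle-treated mouse. The log2 ratio was higher by 0.42 with ISOGK (SE 0.11, exact permutation test, p = 0.0286, adjusted p = 0.0653). *Acaa2* had 579 ± 37.4 and 632 ± 90.9 CPM (SD, n = 4 each), with a log2 fold change of 0.13 and a 95% interval of -0.13 to 0.38 (edgeR adjusted p = 0.551).

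*Scp2* encodes a thiolase for branched chains and bile acid precursors as well as sterol carrier protein 2, from a single gene with alternative starts (chromosome 4, 108043839 to 108144998, minus strand), and counts per gene do not separate these products. It had 3081, 2364, 2559 and 2608 CPM with vehicle and 3261, 3194, 2967 and 3271 CPM with ISOGK. Of the ISOGK-treated mice 3 lay above every vehicle-treated mouse, while mouse 3 lay below vehicle-treated mouse 1. The means of 2653 ± 304 and 3174 ± 142 CPM (SD, n = 4 each) gave a log2 fold change of 0.26 (SE 0.10, 95% interval 0.03 to 0.49). Its unadjusted p in edgeR was 0.0290 and its adjusted p 0.153, and it passed in 0 of 16 alternative settings, with adjusted p-values from 0.0854 to 0.432.

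The ratio between the thiolase genes overlapped between the groups. *Scp2* reads per *Acaa1a* read were 28.7, 27.1, 23.6 and 24.3 with vehicle and 19.4, 18.9, 24.3 and 23.7 with ISOGK. Mice 1 and 2 of the ISOGK group lay below all vehicle-treated mice and mice 3 and 4 lay among them (log2 difference -0.27, SE 0.12, exact permutation test, p = 0.143, adjusted p = 0.143).

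*Decr2* encodes the peroxisomal dienoyl-CoA reductase, an auxiliary enzyme for unsaturated fatty acids (chromosome 17, 26081208 to 26090337, minus strand). It had 146, 133, 134 and 154 CPM with vehicle and 237, 247, 186 and 194 CPM with ISOGK, with ISOGK-treated mice 3 and 4 lower than mice 1 and 2 but above the vehicle group. From 141 ± 10.2 to 216 ± 30.3 CPM (SD, n = 4 each) the log2 fold change was 0.61 (SE 0.11, 95% interval 0.37 to 0.86, edgeR adjusted p = 0.00757). *Decr1*, the mitochondrial counterpart, rose by 0.81 (SE 0.11, edgeR adjusted p = 0.00178). The ratio of *Decr2* to *Decr1* was 0.904 to 1.15 with vehicle and 0.811 to 0.929 with ISOGK, with an overlap between the groups (log2 difference -0.21, SE 0.09, exact permutation test, p = 0.0571, adjusted p = 0.0653).

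*Crot* encodes carnitine octanoyltransferase, which passes shortened chains to carnitine so that they can leave for the mitochondria (chromosome 5, 8966033 to 8997324, minus strand). It had 596, 481, 452 and 586 CPM in vehicle-treated mice and 819, 1044, 740.0 and 1008 CPM in ISOGK-treated mice. ISOGK-treated mouse 3 was again the lowest of its group and still above all vehicle-treated mice. The means were 529 ± 72.8 and 903 ± 147 CPM (SD, n = 4 each), a log2 fold change of 0.77 (SE 0.14, 95% interval 0.47 to 1.07, edgeR adjusted p = 0.00651). Its annotated exons share 3.04% of their bases with *Gm37153* on the opposite strand and 0.71% with *Gm27941* on the same strand.

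*Crat*, which encodes carnitine acetyltransferase for the shortest chains, is a further outlet. It rose from 47.1 ± 12.6 to 128 ± 26.9 CPM (SD, n = 4 each, log2 fold change 1.44, SE 0.22, edgeR adjusted p = 0.00503). *Crot* reads per *Crat* read were 13.5, 15.8, 8.09 and 10.1 with vehicle and 8.76, 6.88, 6.23 and 6.88 with ISOGK. All ISOGK-treated mice but mouse 1 lay below the vehicle group, whose own values differed almost by a factor of 2 (log2 difference -0.69, SE 0.24, exact permutation test, p = 0.0571, adjusted p = 0.0653). Of the 8 ratios, 3 separated the groups, those of *Ehhadh* to *Hsd17b4*, *Ehhadh* to *Hadha* and *Acaa1a* to *Acaa2*, and 0 had an adjusted p under 0.05. The smallest p of the exact permutation test, 0.0286, passes after adjustment only if most of the 8 ratios reach it. A single ratio could therefore not pass, however large its difference.

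**Figure D3:**
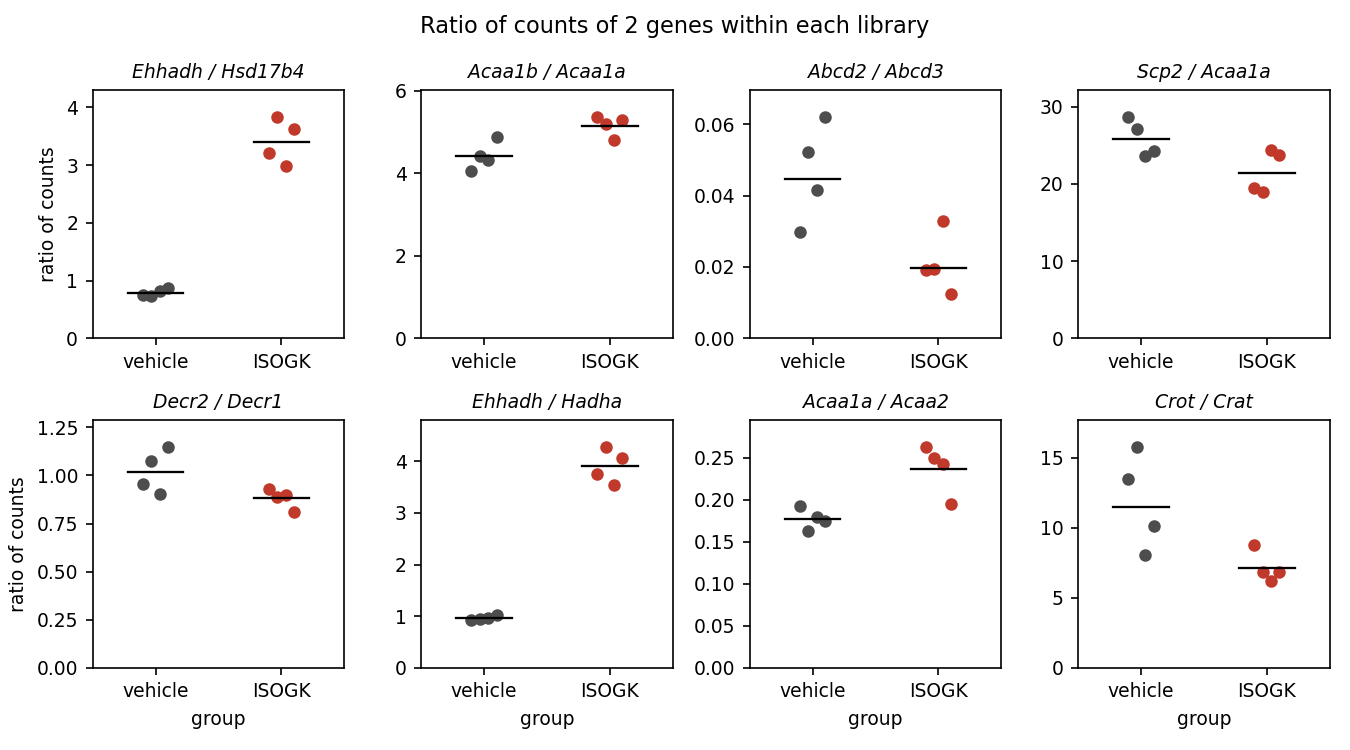
Ratio of the counts of 2 genes within each library, in 8 panels, with a point per mouse and a line at the geometric mean of each group (n = 4). The ratios of *Ehhadh* to *Hsd17b4* and to *Hadha* are 4.30-fold and 4.03-fold higher with ISOGK without overlap, the ratio of *Acaa1a* to *Acaa2* is 1.33-fold higher, and the other 5 overlap between the groups.

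Added together, the 9 genes took 0.550%, 0.450%, 0.510% and 0.522% of all counted reads in vehicle-treated mice 1 to 4 and 0.783%, 0.832%, 0.739% and 0.725% in ISOGK-treated mice 1 to 4. The sum of the 9 levels went from 4862 ± 449.5 to 8066 ± 576 CPM (SD, n = 4 each), higher by 65.9%. *Ehhadh* alone made up 47.7% of this difference, although it had been 5.85% to 6.74% of the members' counts with vehicle. With ISOGK its share was 21.4% to 23.7%, while that of *Scp2* went from 52.2% to 56.9% down to 36.8% to 40.7%. The 8 genes other than *Ehhadh* summed to 4553 ± 429 and 6228 ± 406 CPM, higher by 36.8%.

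Some mice stood at the same end of their group for several genes. ISOGK-treated mouse 3 was the lowest of its group in 6 of the 9 genes and mouse 2 the highest in 5. In the vehicle group, mouse 2 was the lowest in 6 genes, and mice 1 and 4 were the highest in 4 each. These places are a description, since all genes of a mouse share its library and its scaling.

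Counts and CPM are not corrected for the length of a gene, so the order of levels between genes was taken per length, as CPM per kilobase of exon. *Scp2* was the highest in both groups, with 763 ± 87.4 CPM per kb with vehicle and 912 ± 40.8 with ISOGK (SD, n = 4). With vehicle *Acaa1b* followed at 231 ± 29.9, and then came *Hsd17b4*, *Ehhadh* and *Crot* at 115 ± 8.01, 104 ± 9.92 and 96.9 ± 13.4 CPM per kb. These 3 neighbours overlapped in range (106 to 125, 89.5 to 113 and 82.8 to 109), so their order is not fixed by these mice. *Decr2* had 53.3 ± 3.84, *Abcd3* 41.2 ± 2.61, *Acaa1a* 23.3 ± 2.35 and *Abcd2* 2.11 ± 0.601 CPM per kb.

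With ISOGK *Ehhadh* moved from place 4 to place 2 in the order per length. It had 616 ± 65.2 CPM per kb, above *Acaa1b* at 394 ± 74.6, *Crot* at 165 ± 26.9 and *Hsd17b4* at 158 ± 1.31. *Decr2* and *Abcd3* overlapped in range (70.3 to 93.1 and 59.3 to 82.4), and *Acaa1a* with 33.8 ± 5.27 and *Abcd2* with 1.68 ± 0.817 were the lowest. The length used for a gene mattered for this order: with the principal transcript in place of all exons, *Ehhadh* was at place 5 with vehicle, behind *Crot* at 176 and *Hsd17b4* at 145 CPM per kb, and again at place 2 with ISOGK. *Acaa1a*, whose annotated exons cover 4414 bases and whose principal transcript covers 1762, then had 58.2 and 84.7 CPM per kb and remained at place 8 in both groups.

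**Figure D4:**
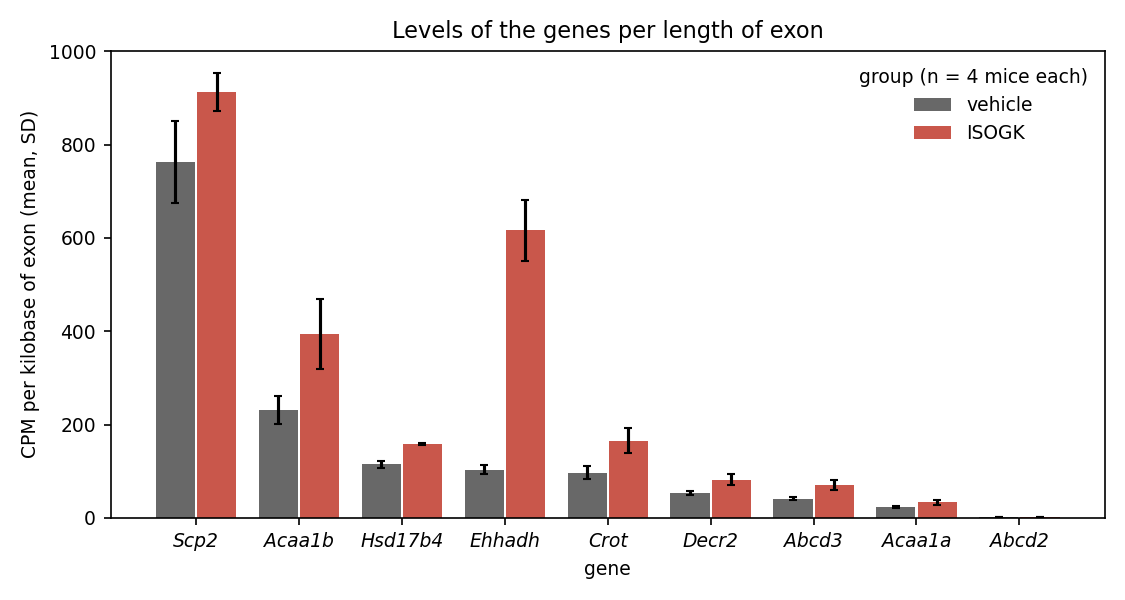
Level of each gene per length, as bars of mean CPM per kilobase of exon with the SD (n = 4 per group). *Scp2* is highest in both groups, *Ehhadh* goes from 104 to 616 CPM per kb, and *Abcd2* is near 2 in both.

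Of 26 tested genes on a wider list of peroxisomal fatty acid oxidation and acyl-CoA handling, 12 rose and 1 fell in edgeR, with a median log2 fold change of 0.36. Over all tested genes 4.11% rose and 3.44% fell. The groups did not overlap for 13 of the 26, beside 15.3% of all tested genes. *Hsdl2*, a peroxisomal member of the short-chain dehydrogenase family, rose from 87.0 ± 15.03 to 191 ± 16.4 CPM (SD, n = 4 each, log2 fold change 1.14, SE 0.13, edgeR adjusted p = 0.000738), and *Crat* is given above. The gene that fell, named after its value was seen, was *Pecr*, the peroxisomal enoyl-CoA reductase of chain elongation (-0.36, SE 0.10, edgeR adjusted p = 0.0484), a call lost in 12 of 16 alternatives. With each mouse left out in turn, 6 to 12 genes of this list rose and 0 fell, with 6 without vehicle-treated mouse 2 and 7 without ISOGK-treated mouse 2. With library size alone 7 rose and 1 fell.

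The peroxisome's other enzymes and membrane proteins, outside fatty acid oxidation, were called in both directions. Of 19 tested, 3 rose and 1 fell in edgeR, beside 7.55% of all tested genes in either direction, and the median log2 fold change was -0.02. DESeq2 called 5 higher and 3 lower, and the groups did not overlap for 10 of the 19, beside 15.3% of all tested genes. *Ephx2*, soluble epoxide hydrolase, rose by 0.80 (SE 0.10, edgeR adjusted p = 0.00139). *Paox*, a polyamine oxidase, fell by 0.92 (SE 0.15, edgeR adjusted p = 0.00461). *Pxmp4*, a membrane protein, rose by 0.88 (SE 0.19, edgeR adjusted p = 0.0225), a call lost without vehicle-treated mouse 2 (0.0720), ISOGK-treated mouse 2 (0.0536) or ISOGK-treated mouse 4 (0.0613). The balance of this list turned with library size alone, with 2 higher and 4 lower, and its count of higher genes was 1 without any one of those 3 mice and 5 without ISOGK-treated mouse 3.

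Of 16 peroxins, the proteins that build peroxisomes and import their enzymes, 7 rose and 1 fell, with a median of 0.32. Over all tested genes 4.11% rose and 3.44% fell. The groups did not overlap for 9 of the 16, beside 15.3% of all tested genes. *Pex19*, a receptor for membrane proteins, rose by 0.69 (SE 0.11, edgeR adjusted p = 0.00349). *Pex11a*, which acts in the elongation and division of peroxisomes, rose by 0.77 (SE 0.14, edgeR adjusted p = 0.00651), and *Pex16*, of membrane assembly, by 0.78 (SE 0.14, 0.00665). *Pex26*, named after its value was seen, fell by 0.47 (SE 0.13, edgeR adjusted p = 0.0489) and lost its call in 9 of 16 alternatives. Scaling by library size alone left 3 higher and 2 lower. Leaving out single mice gave 3 to 8 higher peroxins, with 3 or 4 without any 1 of the vehicle-treated mice and 3 without ISOGK-treated mouse 2 or 4.

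In the mitochondrial beta-oxidation list 11 of 19 genes rose and 0 fell, with a median of 0.43, and with library size alone 8 rose and 1 fell. Over all tested genes 4.11% rose and 3.44% fell in the main test. The groups did not overlap for 13 of the 19, beside 15.3% of all tested genes. *Etfdh*, which passes electrons to the respiratory chain, rose by 0.74 (SE 0.09, edgeR adjusted p = 0.00117), and *Slc25a20*, the carnitine-acylcarnitine carrier, by 0.84 (SE 0.12, 0.00185). The median of the 9 peroxisomal members was higher, at 0.61, but the members and the mitochondrial list were not tested against each other.

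Of 20 other target genes of PPAR alpha, 18 rose and 0 fell, with a median of 0.91. Over all tested genes 4.11% rose and 3.44% fell. The groups did not overlap for 17 of the 20, beside 15.3% of all tested genes. *Cyp4a14* and *Cyp4a10*, fatty acid omega-hydroxylases whose close copies can share reads, rose by 2.12 (SE 0.13, edgeR adjusted p = 1.02e-05) and 2.02 (SE 0.16, 6.1e-05). *Fgf21*, a hormone of the fasted liver, went from 1.20 ± 0.367 to 9.60 ± 3.88 CPM (SD, n = 4 each), a log2 fold change of 2.99 (SE 0.34, edgeR adjusted p = 0.00122). *Hadha*, *Slc25a20* and *Cpt1a* are on this list as well as the mitochondrial list, and *Aldh3a2* is on this list and the wider peroxisomal one, so the counts are not independent.

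The transcripts of the receptor and its partners gave no call in edgeR. Of 12 genes, 0 passed, 1 was lower at an unadjusted p under 0.05 (*Med1*), and DESeq2 and limma-voom each called 0. *Ppara* had 77.1 ± 6.33 and 80.5 ± 12.0 CPM (SD, n = 4 each), a log2 fold change of 0.06 with a 95% interval of -0.19 to 0.31 (edgeR adjusted p = 0.791). *Rxra*, its partner receptor, had 431 ± 32.5 and 385 ± 29.7 CPM, a log2 fold change of -0.17 with an interval of -0.38 to 0.05 (edgeR adjusted p = 0.328).

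**Figure D5:**
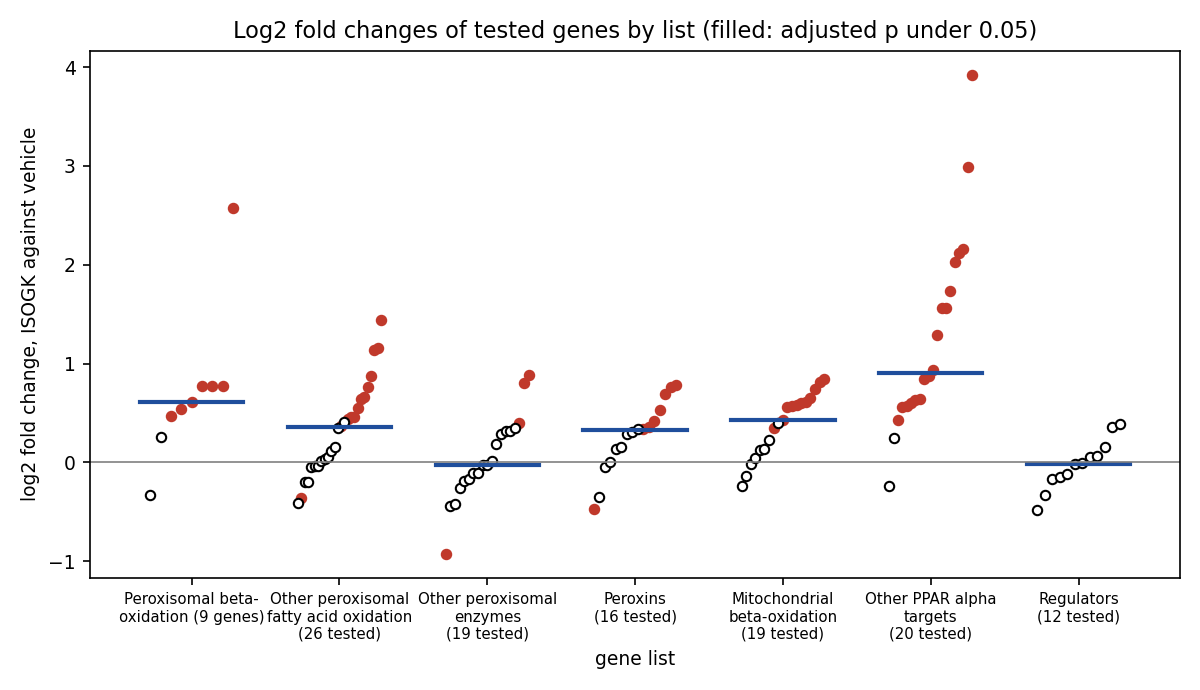
Log2 fold change of every tested gene (points) in the members and 6 other lists, filled where the edgeR adjusted p is under 0.05, with a blue line at the median of the list. The medians are 0.61 for the members, 0.91 for other PPAR alpha targets, 0.43 for mitochondrial beta-oxidation and near 0 for regulators and other peroxisomal enzymes.

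Promoters are shown for *Ehhadh*, which moved most, and for the thiolase copies, whose coding sequences are nearly the same. Each line gives the 250 bases before the RefSeq start (GRCm38.p6), at chr16:21787835-21788084 on the minus strand for *Ehhadh*, chr9:119341044-119341293 on the plus strand for *Acaa1a* and chr9:119157094-119157343 on the minus strand for *Acaa1b*. Capitals mark CCAAT and GGGCGG on either strand.
*Ehhadh*: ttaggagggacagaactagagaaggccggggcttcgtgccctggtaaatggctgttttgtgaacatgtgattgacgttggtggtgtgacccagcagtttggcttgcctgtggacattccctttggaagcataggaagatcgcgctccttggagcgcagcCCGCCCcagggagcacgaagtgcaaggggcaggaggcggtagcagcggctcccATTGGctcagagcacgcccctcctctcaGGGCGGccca
*Acaa1a*: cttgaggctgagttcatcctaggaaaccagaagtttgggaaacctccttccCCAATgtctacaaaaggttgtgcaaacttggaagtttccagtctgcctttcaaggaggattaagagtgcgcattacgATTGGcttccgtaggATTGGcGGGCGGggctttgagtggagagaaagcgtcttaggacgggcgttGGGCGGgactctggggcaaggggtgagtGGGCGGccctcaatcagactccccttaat
*Acaa1b*: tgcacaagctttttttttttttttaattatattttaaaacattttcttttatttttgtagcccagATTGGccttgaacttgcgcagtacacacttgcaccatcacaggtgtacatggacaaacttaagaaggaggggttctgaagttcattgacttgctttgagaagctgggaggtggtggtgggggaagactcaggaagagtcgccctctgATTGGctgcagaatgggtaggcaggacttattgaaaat
*Acaa1a* held GGGCGG 3 times and CCAAT 3 times in this window, while *Acaa1b* held CCAAT 2 times and no GGGCGG. *Ehhadh* held CCAAT with its first base 38 bases before the start, as *Acaa1b* did, and GGGCGG 2 times. The promoter table held 7 of the 9 genes, with 8 promoters, of which 4 had CCAAT and 5 had GGGCGG, beside 33.8% and 32.7% of all 32851 promoters.

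PPAR alpha binds with its partner to direct repeats of AGGTCA spaced by a single base. The strict repeat AGGTCANAGGTCA, on either strand, was in 0 of the 8 member promoters and in 0.0335% of all promoters of this length, and the looser AGGNCANAGGNCA, which includes the strict one, was in 0 and 0.338%. The lone unit AGGTCA was in 1, that of *Scp2*, and in 4607 of all 32851. These are matches of letters in 250 bases, and sites elsewhere in or around the genes were not searched. Both repeats are so rare that 0 matches were likely in any 8 promoters, so their counts tell nothing about the members.

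The genes whose pattern over the 8 mice was nearest to *Ehhadh*, by the root mean square difference of gene-centred log2 CPM, were *Chrna2* (0.283), *Cyp4a14* (0.309) and *Cyp4a31* (0.326). *Chrna2*, a nicotinic acetylcholine receptor subunit gene, had 3.94 ± 0.639 and 17.7 ± 3.93 CPM (SD, n = 4 each), a log2 fold change of 2.16. *Cyp4a31* had 14.7 ± 1.96 and 76.0 ± 16.8 CPM, a log2 fold change of 2.37, and as a close copy of other *Cyp4a* genes it can share reads with them.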

How the data were processed

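Liver RNA was sequenced from 4 mice given vehicle and 4 given ISOGK, and groups and replicate numbers were taken from the deposited labels. The table's columns named for DMSO were taken as vehicle, the solvent in the study's scheme. Single-end Illumina reads had been aligned by the authors with HISAT2 to the mouse genome, and StringTie was used to count them. The deposited file gives raw counts, as whole numbers for each gene symbol. The labels name mm10, read length and strand use are not given in the sources used here, and coordinates are those of GENCODE M21 (GRCm38).

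From the counts, genes were filtered with filterByExpr (minimum count 10, minimum total 15), normalized with TMM and tested with the robust quasi-likelihood test of edgeR 4.0.16 in R 4.3.3, with Benjamini-Hochberg adjustment over all tested genes and a threshold of 0.05. TMM factors were 1.02 to 1.09 with vehicle and 0.883 to 1.01 with ISOGK, and the common biological coefficient of variation was 0.164. SEs were derived from the F statistic. CPM include TMM factors. Reads had no molecular identifiers, and the SEs and intervals cover variation between mice as well as counting error. The labels alone tie each library to its own mouse, and libraries of a group differed by 18.1 to 99.8 in chi-square per gene, far from the value of about 1 that sampling noise gives.

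Ratios of counts (pseudocount 0.5 on the log2 scale) were compared with two-sided exact permutation tests, adjusted over 8 ratios. The members and lists were chosen with earlier results of these data known. Named genes were the members, their partners in ratios, up to 3 genes per list with the smallest adjusted p, *Ppara*, *Rxra* and the 3 genes nearest in pattern (log2 CPM, prior count 2) to a member with a log2 fold change over 1. Some genes that this rule names are left out. Alternatives were DESeq2 1.42.0, voom in limma 3.58.1, other scalings and filters, the replicate number as a block, the test without its robust option, a pseudocount of 5 and each mouse left out. Transcript length, and list counts without single mice, were added after the data had been examined. Methods were tested on simulated counts. Sequences are from GENCODE M21 transcripts and RefSeq promoters.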

Additional observations from a re-analysis of the deposited data

Results flagged for a closer look

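Values of single mice were compared with the rest of their group by Dixon's 95% criterion for 4 mice in 84 groups of values, of which 4.2 are expected to exceed it by chance and 2 did. *Acaa1a* had 87.1 CPM in vehicle-treated mouse 2 while its group otherwise lay at 107 to 108 CPM, so that the gap took 0.955 of the range. Left out, that mouse took the log2 fold change of *Acaa1a* to 0.47 and its edgeR adjusted p to 0.0842. *Hsd17b4* had 545 CPM in ISOGK-treated mouse 3 and 536 to 537 CPM in the other 3, a gap of 0.872 of a range that is narrow beside the spread of the vehicle group. Without it *Hsd17b4* remained past the threshold, as it did in all 16 alternatives (adjusted p up to 0.0464).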

How the results depend on the processing

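Between 6 and 7 members were called higher and 0 lower in the 16 alternatives, and 1 passed both thresholds in each. Calls of *Ehhadh*, *Hsd17b4*, *Acaa1b*, *Abcd3*, *Crot* and *Decr2* held in all 16, *Acaa1a* lost its call in 4 (adjusted p 0.00193 to 0.0842), and *Scp2* and *Abcd2* gained none. No ratio moved by more than its spread between mice, but the settings could not have shown such a move. Leaving out a single mouse cannot shift a group mean that far, and the replicate block leaves the difference of the means unchanged. The pseudocount of 5 is small beside the counts in the ratios, which were 93 or more. It could not have done so either, and ratios without single mice are values with no test.

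Library size alone shifted the median of all genes by -0.13 and turned the share of higher calls from 54.5% to 24.6% (506 higher and 423 lower against 262 and 804). Under it 7 wider-list peroxisomal oxidation genes rose, 4 other peroxisomal enzymes fell, 3 peroxins rose and 2 fell, 1 mitochondrial gene, 1 regulator and 2 Kupffer markers fell, and 0 cholangiocyte markers rose. *Acaa2* and *Ppara* turned to -0.012 and -0.062. With single mice left out, *Ppara* ranged from -0.0057 (without ISOGK-treated mouse 3) to 0.14, with -0.0013 without ISOGK-treated mouse 2. The cause was not tested. DESeq2 called 765 genes higher and 670 lower.

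With each mouse left out in turn, 219 to 712 genes rose and 160 to 523 fell, the fewest without vehicle-treated mouse 2. The wider peroxisomal list then had 6 to 12 higher and 0 lower, other peroxisomal enzymes 1 to 5 higher and 1 to 2 lower, peroxins 3 to 8 higher and 0 to 1 lower, mitochondrial genes 8 to 12 higher and PPAR alpha targets 15 to 17 higher. *Sox9* lost its call in 12 of 16 alternatives.

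The replicate block gave 7 members higher, 411 genes higher and 416 lower, and changed no member's call. The labels do not say that equal numbers pair mice, and deviations of same-numbered mice correlated at 0.0130, -0.0144, 0.0754 and 0.0849, so the numbers were not used. With the block the log2 ratio of *Ehhadh* to *Hsd17b4* differed by 2.10. The mean of same-numbered differences equals the difference of the group means, so this value could not change. With 93 to 376 counts per library, the interval of *Abcd2* still allows a log2 fold change from -1.11 to 0.45.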
